A study of Sus scrofa with 21 samples.

Results

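Endometrium taken between the attachment places of the conceptuses, called inter-site endometrium, was compared on day 13 after service between pregnant and non-pregnant sows. The members were the 3 arrays labelled as inter-site endometrium of pregnant sows on day 13 and the 3 arrays labelled as endometrium of non-pregnant sows, which make 6 of the 21 arrays of the series. The pregnant sows were Large White animals mated by insemination and slaughtered on day 13. The non-pregnant sows were Large White animals that received inactivated sperm from the same boar and were slaughtered on day 13 as well, so the controls are mated with dead sperm and not unmated cycling animals. The remaining arrays hold attachment sites of day 13 and both kinds of site on days 18 and 24, with 3 arrays in each of the 7 groups. Each 1-colour array was hybridised with Cy3-labelled cRNA made from 0.5 µg of total RNA of whole endometrium, with no sorting of cells.

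Progesterone maintains the uterus for pregnancy by binding its nuclear receptor, and loss of that receptor from the uterine epithelium is a known step before a conceptus can attach. Pig blastocysts elongate in this period, and they secrete oestradiol and interferons that act on the endometrium. The uterine glands feed the conceptuses with a mixture of secreted proteins called histotroph, of which uteroferrin, an iron-binding acid phosphatase encoded by ACP5, is the best known in the pig.

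A level is given below as the log2 of a probe's background-subtracted signal relative to the 75th percentile of its array, so that a difference of 1 is a factor of 2. Levels of different probes cannot be compared with each other. A gene was represented by its probe with the highest mean over the 21 arrays, and 2018 genes had both a symbol and a tested probe. A probe was called when its adjusted p fell below 0.05 in limma's moderated test with Benjamini-Hochberg adjustment over all 30091 probes tested. The number of arrays, 3 against 3 and 3 sows per group by the labels, limits the precision of every comparison. The SE rests on a spread pooled over the 21 arrays of the 7 groups. Each array counted as independent, although by the labels both kinds of site come from the same pregnant sows.

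Among the 6 arrays, 62.3% to 73.9% of probes were well above background and the 75th percentile of the signal lay between 367 and 518 intensity units. One inter-site library, replicate 1, and one non-pregnant library, replicate 3, stood apart from the rest. Together with replicate 3 of the inter-sites of day 24 they held 25 probes that were lower by at least 2.5 on the log2 scale than on every one of the other arrays, and 3 probes that were higher by as much. Over all probes inter-site replicate 1 correlated with non-pregnant replicate 3 at r = 0.975 and with the day 24 array at r = 0.977. Its r with the other day 13 inter-site arrays was lower, at 0.964 and 0.953. Non-pregnant replicate 3 and the day 24 array correlated at r = 0.986. Why these arrays were alike was not tested. Named genes among the low probes were ACP5, GPX3 (the secreted glutathione peroxidase) and UABP-2 (a uteroferrin-associated basic protein), which were singled out after their values were seen. Among the 3 higher probes the only named gene was MYH7. ACP5 stood at 6.03, 9.31 and 9.17 at the inter-sites, against 9.11, 9.38 and 6.04 in non-pregnant sows. GPX3 stood at 1.44, 7.41 and 5.30 at the inter-sites, against 5.74, 6.31 and 0.95 in non-pregnant sows. UABP-2 stood at 0.99, 7.25 and 5.28 at the inter-sites, against 7.07, 8.26 and −1.16 in non-pregnant sows. Each group therefore held 1 library low in ACP5, GPX3 and UABP-2, and the results are given with and without those libraries where they rest on them. Other secreted proteins differed in these 2 libraries. RBP4 was the lowest of its group in both, at 1.97 and 4.39, while SLPI was not, at 8.56 and 8.99. At 29 probes that were clearly on in some arrays and off in others without following the groups, inter-site replicate 2 shared its state with attachment-site replicate 2 at 93.1% and inter-site replicate 3 with attachment-site replicate 3 at 89.7%, while non-pregnant replicates 1 and 2 shared theirs at 86.2%. Replicate 1 of both day 13 sites shared its state at 72.4%, and matches of 89.7% also occurred between days, as for attachment-site replicate 2 of day 13 with inter-site replicate 1 of day 18, so a match does not identify a sow. The labels call every sample endometrium, and 7 of 15 epithelial markers, EPCAM, KRT8 and CDH1 among them, passed the filter on dim probes, but smooth muscle markers were not evenly spread: ACTA2, smooth muscle actin, stood at 3.75, 3.77 and 4.48 at the inter-sites, against 8.66, 8.48 and 4.19 in non-pregnant sows.

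**Figure D1:**
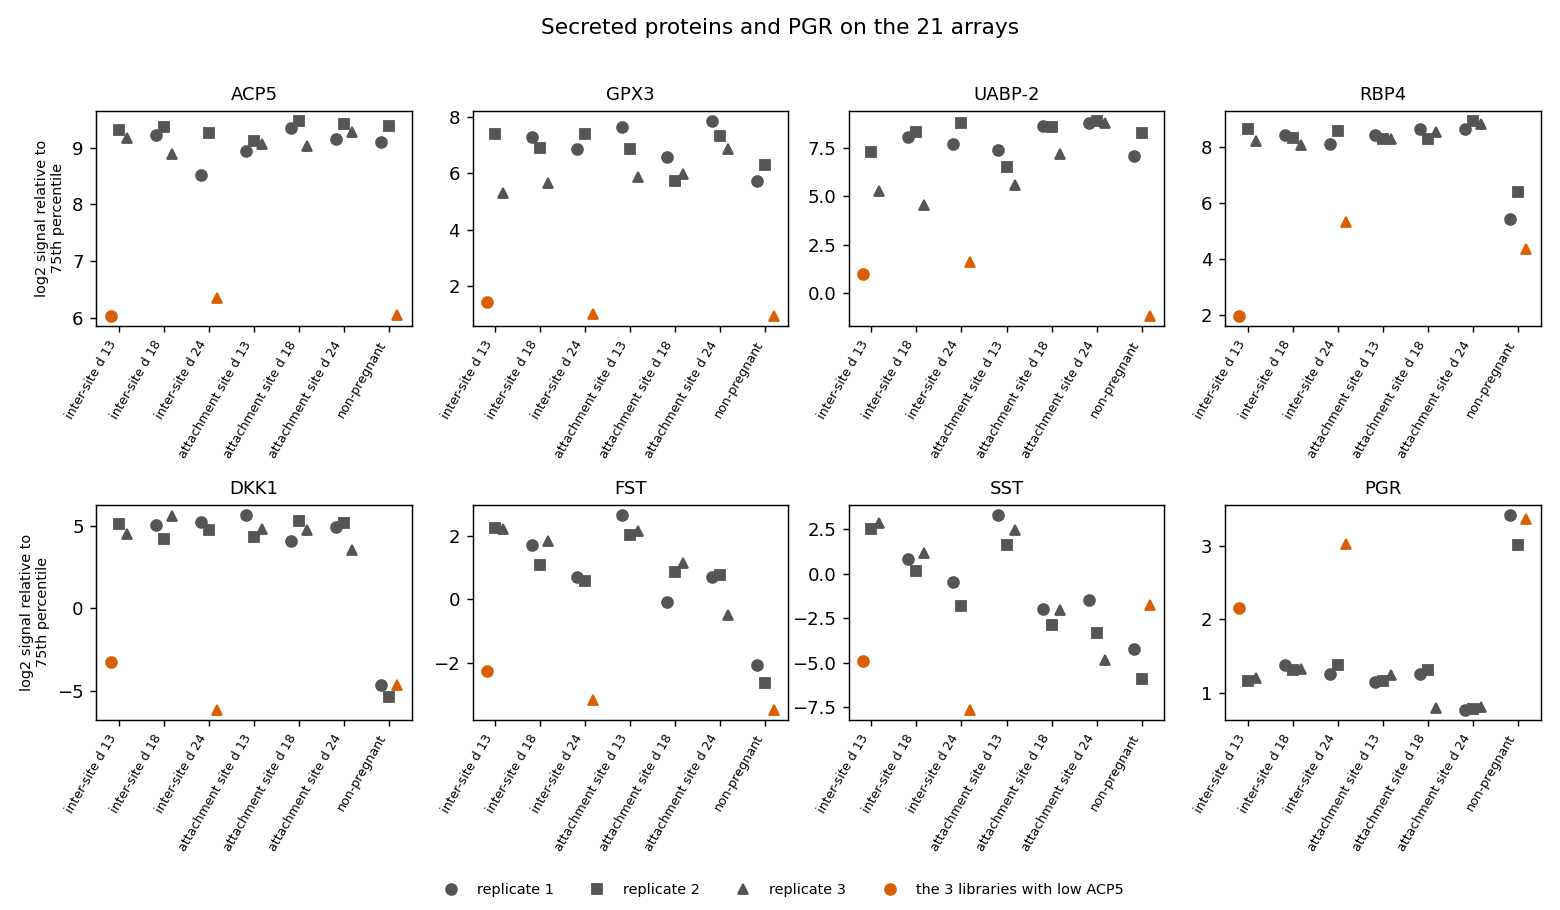
Levels (log2 signal relative to the 75th percentile of the array) of 7 secreted-protein genes and the progesterone receptor gene PGR on the 21 arrays, by group, with the 3 libraries of low ACP5 in orange. Replicate 1 of the day 13 inter-sites has low ACP5, GPX3, UABP-2, RBP4, DKK1, FST and SST, while its PGR level of 2.15 lies between those of the other inter-site arrays and the non-pregnant arrays.

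Few probes differed between the inter-sites and the non-pregnant sows on day 13, and most of those with a gene name fell. Of the 30091 probes tested, 135 (0.449%) were called, 43 higher (0.143%) and 92 lower (0.306%) at the inter-sites than in non-pregnant sows. The same test gave 5302 probes with an unadjusted p under 0.05, 7.93% of all probes higher and 9.69% lower. By representative probe, 15 genes with a symbol were called: NR0B1 and ANPEP rose (2 of 2018 genes, 0.0991%), and PGR, HTR2A, RND3, PPP1R14B, TPM4, ACTR3, HNRNPAB, RANBP1, VARS, NIP7, PSME3, PSMA5 and PGK1 fell (13 of 2018 genes, 0.644%). Another 5 genes, BTG3, BYSL, CYCS, NME2 and PDK4, were called only by a probe other than the representative one, and they are named here because of that count. In bulk tissue fewer cells of a type and less RNA per cell cannot be told apart, which applies to every gene below.

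**Figure D2:**
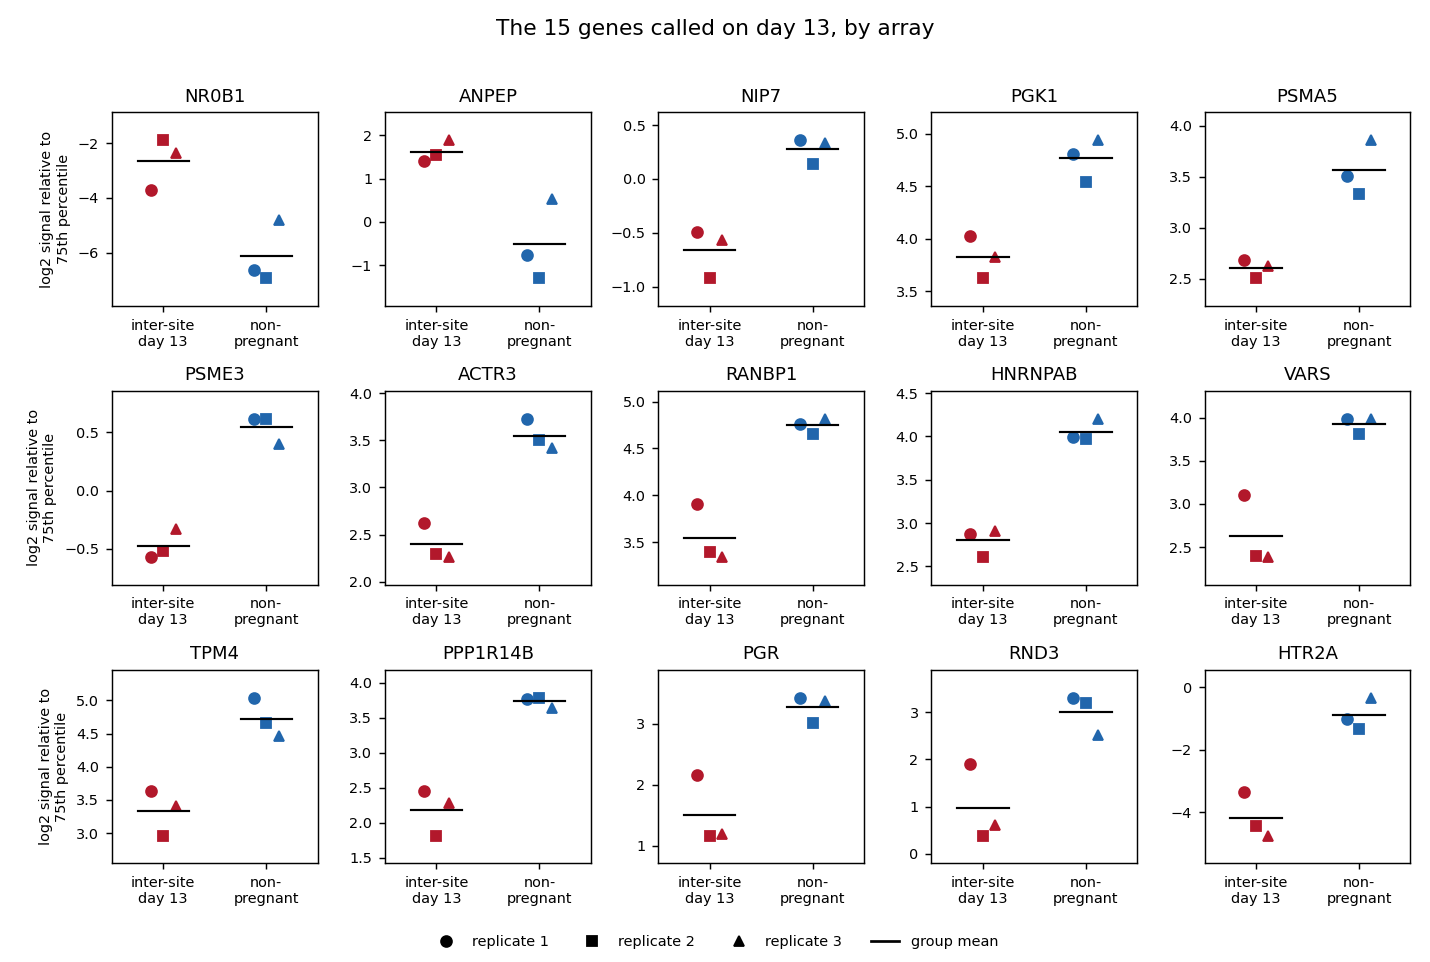
Levels (log2 signal relative to the 75th percentile of the array) of the 15 called genes, with 1 panel per gene, day 13 inter-sites at the left in red and non-pregnant sows at the right in blue. Symbols mark the replicate and black lines the mean of 3 arrays. In each panel the groups do not overlap, with NR0B1 and ANPEP higher at the inter-sites and the other 13 genes lower.

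All 135 called probes had groups that did not overlap. Over all probes tested, groups did not overlap in 10.5% with the inter-sites higher and in 11.9% with the inter-sites lower. Because of that, the sign of a called probe within a slide is fixed, and only the size is given: the 13 lower genes differed by −0.79 (PGK1) to −2.35 (HTR2A) on the log2 scale between inter-site replicate 1 and non-pregnant replicate 1, which shared a slide. Between inter-site replicate 2 and non-pregnant replicate 3, which shared another, they differed by −0.92 (PSME3) to −4.11 (HTR2A). The calls rest on few arrays: without inter-site replicate 2, inter-site replicate 3, non-pregnant replicate 1 or non-pregnant replicate 2 no probe was called, and none was called with slide as a block, where the 15 genes had adjusted p between 0.189 and 0.272. With libraries that match at the 29 on-off probes as a random block, in sets that span different days, none was called either, and the 15 genes had adjusted p between 0.0858 and 0.162. With only the 6 arrays compared in the fit 1 probe was called, and the 15 genes had adjusted p between 0.194 and 0.269 (limma). Without inter-site replicate 1 the count was 610 probes, and without the 3 libraries of low ACP5 it was 1004, with all 15 genes still called in both fits.

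The nuclear receptors for steroids came first among the results by role. PGR, the progesterone receptor, stood at 2.15, 1.16 and 1.2 at the inter-sites, against 3.43, 3.01 and 3.37 in non-pregnant sows. The groups did not overlap, and replicate 1 was the highest of the inter-site arrays. The difference was −1.77 ± 0.36 (log2, SE, n = 3 each), a level 3.4-fold lower at the inter-sites (limma, adjusted p = 0.0425), and it was −2.09 without inter-site replicate 1 (limma, adjusted p = 0.015). Without non-pregnant replicate 3 it was −1.72, with an adjusted p of 0.0551 in limma. ESR1, the oestrogen receptor alpha, stood at 2.03, 0.76 and 0.97 at the inter-sites, against 2.40, 2.51 and 1.71 in non-pregnant sows. Its groups overlapped through inter-site replicate 1, and it was not called (limma, adjusted p = 0.241). FKBP4, a co-chaperone of steroid receptors, stood at 0.13, 0.57 and 1.19 at the inter-sites, against 2.12, 1.63 and 1.54 in non-pregnant sows, and was not called either (limma, adjusted p = 0.141). Of 21 listed steroid receptors and cofactors 11 were measured, PGR alone was called, and their median log2 difference was −0.01, beside −0.13 over all 2018 genes.

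NR0B1, known as DAX1, is an orphan nuclear receptor that represses other nuclear receptors in steroid-producing tissues. It stood at −3.70, −1.89 and −2.35 at the inter-sites, against −6.63, −6.93 and −4.82 in non-pregnant sows, where 1 of 3 arrays was well above background. All inter-site arrays lay above the non-pregnant ones. The difference was 3.48 ± 0.69 (log2, SE, n = 3 each; limma, adjusted p = 0.0405). The non-pregnant array above background was replicate 3, so no difference is given without the libraries of low ACP5.

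Genes of protein synthesis, RNA handling and protein breakdown fell as single genes, several of them by more than 1 probe. HNRNPAB, an RNA-binding protein of the nucleus, stood at 2.88, 2.61 and 2.91 at the inter-sites, against 3.99, 3.97 and 4.20 in non-pregnant sows. The spread inside each group was small beside the gap, and all 3 of its probes were called. Its difference was −1.26 ± 0.20 (log2, SE, n = 3 each; limma, adjusted p = 0.0255), 2.39-fold lower at the inter-sites. RANBP1, a cofactor of the Ran GTPase that drives transport through nuclear pores, stood at 3.91, 3.40 and 3.35 at the inter-sites, against 4.77, 4.65 and 4.82 in non-pregnant sows. All 5 of its probes were called, and the representative one differed by −1.19 ± 0.22 (log2, SE; limma, adjusted p = 0.032). VARS, the valyl-tRNA synthetase, stood at 3.1, 2.39 and 2.39 at the inter-sites, against 3.98, 3.80 and 3.98 in non-pregnant sows, with a difference of −1.29 ± 0.24 (log2, SE; limma, adjusted p = 0.0306). For both genes inter-site replicate 1 was the inter-site array nearest to the non-pregnant sows.

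The other called genes of this kind act in ribosome assembly and in the proteasome. NIP7, a ribosome assembly factor, stood at −0.49, −0.92 and −0.57 at the inter-sites, against 0.36, 0.14 and 0.33 in non-pregnant sows. PSMA5, a subunit of the proteasome core, stood at 2.69, 2.51 and 2.63 at the inter-sites, against 3.51, 3.33 and 3.86 in non-pregnant sows. PSME3, an activator of nuclear proteasomes, stood at −0.57, −0.52 and −0.33 at the inter-sites, against 0.62, 0.61 and 0.40 in non-pregnant sows. These 3 genes showed no overlap, and the log2 differences were −0.94 for NIP7, −0.96 for PSMA5 and −1.02 for PSME3, each a little below or above 2-fold (limma, adjusted p = 0.0405, 0.0322 and 0.0255 in that order). BYSL, which acts in assembly of the small ribosomal subunit, was called by 1 of its 2 probes, which stood at −1.08, −1.50 and −1.02 at the inter-sites, against −0.24, −0.26 and −0.38 in non-pregnant sows.

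Of 56 listed genes of translation, RNA handling and nuclear transport 17 were measured. HNRNPAB, VARS and RANBP1 were called lower, none was called higher, and 16 of the 17 had a negative log2 difference, beside 1206 of all 2018 genes. With unadjusted p under 0.05 there were 11 lower and 0 higher members, beside 16.4% lower and 4.11% higher over all genes with a symbol. The list's median was −0.74, beside −0.13 over all genes, and it lay between −0.90 and −0.50 under the other scalings. EIF4A1, the translation initiation helicase, stood at 2.25, 1.96 and 2.23 at the inter-sites, against 3.11, 3.1 and 3.37 in non-pregnant sows. Its groups did not overlap, but its adjusted p of 0.0514 (limma) missed the threshold. DKC1, the dyskerin of RNA pseudouridylation, is named after its values were seen and gave −1.06 (limma, adjusted p = 0.0517). Both were called without inter-site replicate 1, at −1.10 for EIF4A1 and −1.23 for DKC1 (limma, adjusted p = 0.0415 and 0.0225). Without the 3 libraries of low ACP5 EIF4A1 was not called and DKC1 was, at −1.01 and −1.16 (limma, adjusted p = 0.0762 and 0.031).

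Cytosolic ribosomal proteins showed smaller differences. Of the 32 measured genes none was called, 7 were lower and none higher at an unadjusted p under 0.05, and the median was −0.23. Groups did not overlap for 13 lower members and 1 higher member, beside 19.2% lower and 4.56% higher over all genes with a symbol. RPSA, the laminin-binding small-subunit protein, had the lowest p of them and stood lower at the inter-sites by 0.65 on the log2 scale (limma, adjusted p = 0.0633), and it was called without inter-site replicate 1. It was not called without the 3 libraries of low ACP5 (limma, adjusted p = 0.0728).

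**Figure D3:**
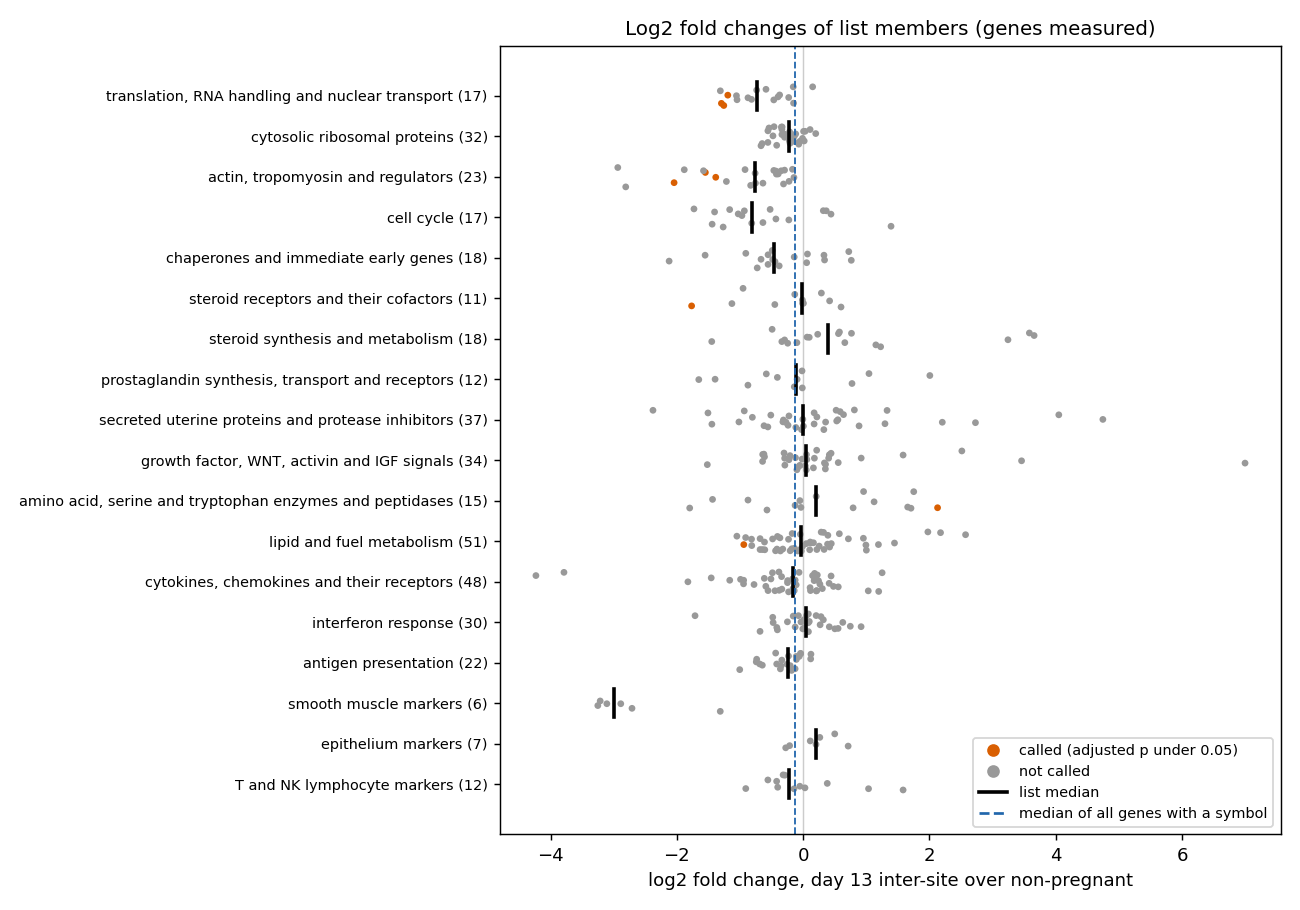
Log2 fold changes, day 13 inter-sites over non-pregnant sows, of the measured members of 18 gene lists, 1 point per gene, with called genes in orange, list medians as black bars and the median of all 2018 genes as a dashed line at −0.13. The members of the actin and translation lists lie mostly left of that line, while the interferon, antigen presentation and secreted protein lists have no called member.

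Genes of the actin skeleton were the other group with several calls. RND3, a regulator of the actin skeleton that counters contraction, stood at 1.90, 0.38 and 0.60 at the inter-sites, against 3.31, 3.20 and 2.51 in non-pregnant sows. PPP1R14B, an inhibitor subunit of protein phosphatase 1, stood at 2.45, 1.81 and 2.28 at the inter-sites, against 3.77, 3.79 and 3.63 in non-pregnant sows. In both genes all inter-site arrays lay below all non-pregnant ones. RND3 differed by −2.04 ± 0.39 (log2, SE, n = 3 each), which is 4.12-fold lower at the inter-sites (limma, adjusted p = 0.0335). PPP1R14B differed by −1.55 ± 0.23 (log2, SE, n = 3 each), which is 2.92-fold lower (limma, adjusted p = 0.021).

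TPM4, a tropomyosin of non-muscle actin filaments, stood at 3.63, 2.96 and 3.41 at the inter-sites, against 5.04, 4.66 and 4.46 in non-pregnant sows. All 3 of its probes were called, and the representative one differed by −1.38 ± 0.29 (log2, SE; limma, adjusted p = 0.0481). ACTR3, the ARP3 subunit of the complex that branches actin filaments, stood at 2.63, 2.30 and 2.26 at the inter-sites, against 3.73, 3.50 and 3.42 in non-pregnant sows. It differed by −1.15 ± 0.23 (log2, SE; limma, adjusted p = 0.0425), with no overlap between the groups.

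Of 53 listed genes of actin, tropomyosin and their regulators 23 were measured, and all 23 had a negative log2 difference, beside 1206 of all 2018 genes. RND3, PPP1R14B and TPM4 were called lower and none was called higher, beside 0.644% called lower over all genes with a symbol. At an unadjusted p under 0.05, 11 of the 23 were lower, beside 16.4% over all genes, and the median was −0.76 (−0.92 to −0.54 under the other scalings). Smooth muscle genes moved with part of this list. Of 14 listed smooth muscle markers 6 were measured, none was called, and their summed level ranged from 36.8 to 55.3 at the inter-sites and from 38.4 to 1319 in non-pregnant sows, in multiples of the 75th percentile. TPM2, the muscle tropomyosin named after its values were seen, followed them at 2.47, 2.63 and 3.12 at the inter-sites, against 7.43, 7.34 and 2.26 in non-pregnant sows. RND3, PPP1R14B and TPM4 were all lowest, among the non-pregnant arrays, in replicate 3, the array with low ACTA2. The part of smooth muscle in these results was not tested. Within the slide that held this array and inter-site replicate 2 the list's median was −0.42, and RND3 differed by −2.12, PPP1R14B by −1.82 and TPM4 by −1.50.

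HTR2A, the serotonin receptor 2A that acts on vessels and smooth muscle, had the largest log2 difference among the 13 genes that fell. It stood at −3.36, −4.44 and −4.76 at the inter-sites, against −1.01, −1.33 and −0.33 in non-pregnant sows. The highest value came from non-pregnant replicate 3, the control array with low smooth muscle actin. The difference was −3.29 ± 0.56 (log2, SE, n = 3 each), a level 9.8-fold lower at the inter-sites (limma, adjusted p = 0.0255), and both of its probes were called. SGCD, a sarcoglycan of muscle membranes, was also highest in that array, at −2.80, −4.21 and −3.54 at the inter-sites, against −0.62, −1.16 and −0.11 in non-pregnant sows, and just missed the threshold (limma, adjusted p = 0.0543). The part of smooth muscle in the differences of HTR2A and SGCD was not tested.

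The rest of the vasoactive list gave no call. Of 55 listed genes 30 were measured, with HTR2A as the single call and a median of 0.06. NOS2, the inducible nitric oxide synthase, stood at −0.50, −0.33 and −0.94 at the inter-sites, against −1.70, −1.84 and −1.66 in non-pregnant sows. The groups did not overlap, but the difference of 1.15 was not called (limma, adjusted p = 0.0844). HTR7, another serotonin receptor, gave −2.56, could be told from background on 1 of 3 inter-site arrays and was not called (limma, adjusted p = 0.19).

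Among peptidases and fuel enzymes, ANPEP rose and PGK1 fell. ANPEP, aminopeptidase N on the surface of epithelial and stromal cells, stood at 1.41, 1.55 and 1.89 at the inter-sites, against −0.77, −1.30 and 0.53 in non-pregnant sows. The inter-site arrays were tightly placed and the non-pregnant ones more spread, with replicate 3 the highest. The difference was 2.13 ± 0.43 (log2, SE, n = 3 each), a level 4.37-fold higher at the inter-sites (limma, adjusted p = 0.0405), and 2 of its 3 probes were called. ENPEP, aminopeptidase A, gave −1.80 in the other direction but was not called (limma, adjusted p = 0.108). Of 41 listed amino acid enzymes and peptidases 15 were measured, ANPEP alone was called, and the median was 0.21.

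PGK1, the phosphoglycerate kinase of glycolysis, stood at 4.03, 3.62 and 3.83 at the inter-sites, against 4.81, 4.54 and 4.94 in non-pregnant sows. Its difference was −0.94 ± 0.19 (log2, SE; limma, adjusted p = 0.0405), although 1 of its 6 probes was called. PDK4, the kinase that shuts off pyruvate dehydrogenase, stood at 4.08, 4.81 and 4.75 at the inter-sites, against 2.67, 2.92 and 2.13 in non-pregnant sows. All 9 of its probes pointed upward and did not overlap, with log2 differences from 1.84 to 2.06. The representative probe gave 1.98 (limma, adjusted p = 0.0545), and 3 of the others were called. PPARGC1A, a coactivator of mitochondrial genes, gave 2.18, with groups that did not overlap (limma, adjusted p = 0.0612). LPL, the lipoprotein lipase, gave 2.57 and was called without inter-site replicate 1 (limma, adjusted p = 0.0815 with all arrays and 0.0377 without that one). CYCS, the cytochrome c of respiration, was called lower by 2 of its 12 probes. Of 76 listed lipid and fuel genes 51 were measured, PGK1 alone was called, and the median was −0.03.

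Chemokines of neutrophils gave some of the largest negative values, with poor detection. CXCL8, interleukin 8, stood at −3.57, −6.87 and −5.70 at the inter-sites, where 1 of 3 arrays was well above background, against −1.98, −1.29 and −1.51 in non-pregnant sows. AMCF-II, a pig CXC chemokine first described as a macrophage product, stood at −2.63, −7.81 and −7.97 at the inter-sites, where 1 of 3 arrays was well above background, against −2.71, −2.12 and −0.89 in non-pregnant sows. In both genes the measured inter-site array was replicate 1, and for AMCF-II it lay inside the range of the non-pregnant sows. CXCL8 differed by −3.79 and missed the threshold (limma, adjusted p = 0.0519), while AMCF-II differed by −4.23 (limma, adjusted p = 0.133). Without inter-site replicate 1 no inter-site array was above background for either gene, and both were called, with CXCL8 at least 16.1-fold lower and AMCF-II at least 13.0-fold lower (limma, adjusted p = 0.0138 and 0.0207). These bounds set the non-pregnant mean against the lowest signal measurable on the other inter-site arrays. Of 71 listed cytokine and chemokine genes 48 were measured, none was called with all arrays, and the median was −0.16. TNFAIP6, a hyaluronan-binding protein of inflammation, gave −2.65 and was called without replicate 1 (limma, adjusted p = 0.0729 with all arrays and 0.0474 without that one). It was not called without the 3 libraries of low ACP5 (limma, adjusted p = 0.0656).

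Several genes of secreted proteins had positive values that split the inter-site arrays. DKK1, the secreted WNT antagonist, stood at −3.24, 5.08 and 4.52 at the inter-sites, against −4.63, −5.37 and −4.63 in non-pregnant sows. FST, the follistatin that binds activin, stood at −2.26, 2.24 and 2.21 at the inter-sites, against −2.06, −2.64 and −3.49 in non-pregnant sows. Replicate 1 of the inter-sites lay beside the non-pregnant arrays in both genes, far below the other inter-site arrays. With all arrays DKK1 differed by 7.0 ± 2.28 and FST by 3.46 ± 1.03 (log2, SE, n = 3 each), and neither was called (limma, adjusted p = 0.142 and 0.116). Without inter-site replicate 1 the values were 9.68 for DKK1 and 4.95 for FST, and both were called (limma, adjusted p = 0.0332 and 0.0137).

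Inter-site replicate 1 was also the lowest inter-site array for other secreted, membrane and nuclear proteins. SST, the hormone somatostatin, stood at −4.93, 2.54 and 2.85 at the inter-sites, against −4.23, −5.94 and −1.78 in non-pregnant sows. OPTC, the extracellular matrix protein opticin, stood at −5.36, −0.89 and 1.06 at the inter-sites, against −7.15, −6.86 and −5.41 in non-pregnant sows. OPTC was well above background on inter-site replicates 2 and 3 and on 0 of the 3 non-pregnant arrays, and it was not called (limma, adjusted p = 0.0665). SCNN1A, part of the sodium channel of epithelia, was detected on the same arrays and was not called either (limma, adjusted p = 0.0761). Since replicate 1 was not above background for OPTC and SCNN1A, no fold over all 3 inter-site arrays is given for them. KLF5, an epithelial transcription factor, stood at −0.75, 2.20 and 1.68 at the inter-sites, against −2.12, −1.84 and −0.45 in non-pregnant sows. Here too the lowest inter-site array was replicate 1. These 4 genes were called without it. The log2 differences were then 6.68 for SST and 3.41 for KLF5 (limma, adjusted p = 0.0409 and 0.0167). OPTC was then at least 38.4-fold and SCNN1A at least 3.12-fold higher (limma, adjusted p = 0.00533 for both). These bounds set the mean of inter-site replicates 2 and 3 against the lowest signal measurable on the non-pregnant arrays.

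RBP4, the retinol-binding protein secreted by uterine glands, was singled out after its values were seen because it turned with replicate 1. It stood at 1.97, 8.66 and 8.24 at the inter-sites, against 5.43, 6.4 and 4.39 in non-pregnant sows. Replicate 1 was the lowest of the 6 arrays and the other inter-site arrays were the highest. The log2 difference was 0.89 with all arrays (limma, adjusted p = 0.746) and 3.04 without replicate 1 (limma, adjusted p = 0.0342). SLPI, a protease inhibitor of mucosal secretions, ran the other way, at 8.56, 5.81 and 4.79 at the inter-sites, against 8.14, 9.16 and 8.99 in non-pregnant sows, and was not called in either fit (limma, adjusted p = 0.211 and 0.0566). SPP1, the osteopontin that bridges integrins, stood at 0.53, 1.35 and −0.09 at the inter-sites, against 0.92, 2.02 and 3.19 in non-pregnant sows, with overlapping groups (limma, adjusted p = 0.306).

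Leaving out inter-site replicate 1 gave 64 called genes with a symbol, 26 higher (1.29% of 2018) and 38 lower (1.88%), and the 15 genes called with all arrays were among them. Over all probes the share called was then 2.03%, 0.977% higher and 1.05% lower, and 131 of the 135 probes called with all arrays remained called. Among the 26 higher genes replicate 1 lay nearer to the non-pregnant mean than to the mean of the other inter-site arrays in 22, and inside the non-pregnant range in 11. Among the 38 lower genes it lay nearer to the non-pregnant mean in 14 and inside the range in 5. The fit that chose these genes left replicate 1 out, so these counts follow in part from that choice. No such count was made over all genes, and nothing is concluded from them. The list of secreted uterine proteins and protease inhibitors, with 37 of 50 measured, had no call and a median of 0.00 with all arrays, and 2 higher calls without replicate 1. The list of growth factor, WNT, activin and IGF signals, with 34 of 58 measured, had no call and a median of 0.05 with all arrays, and 3 higher calls without replicate 1.

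**Figure D4:**
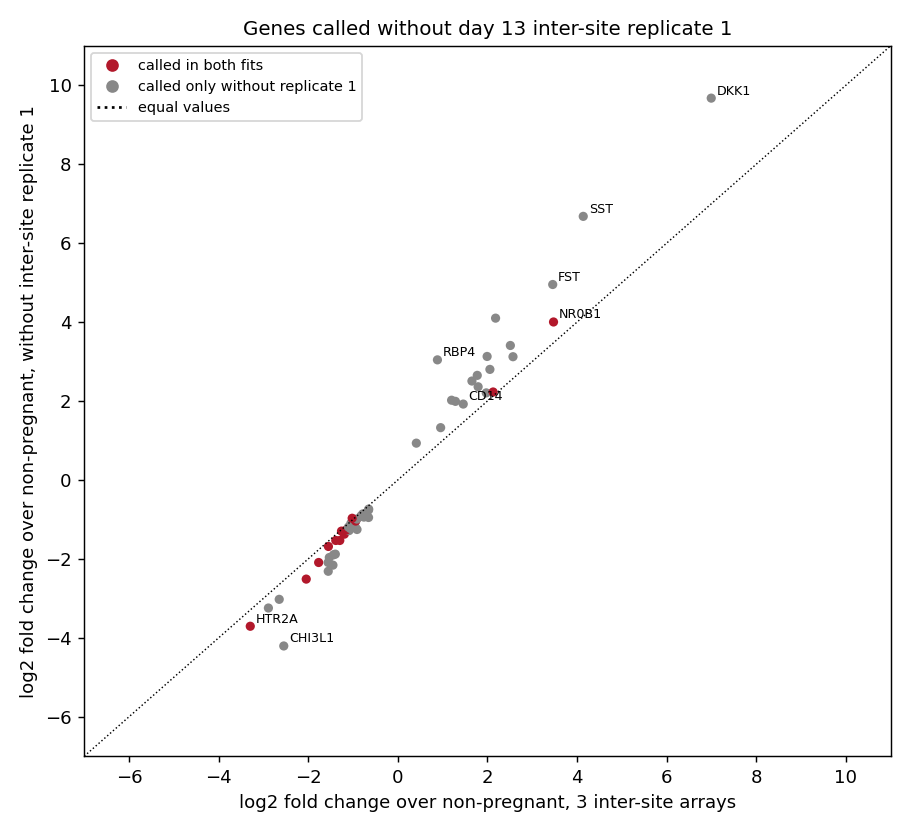
Log2 fold changes over non-pregnant sows of 56 genes called without inter-site replicate 1, with all 3 inter-site arrays on the horizontal axis and without replicate 1 on the vertical axis; genes called in both fits are red. Higher genes such as DKK1 (7.0 and 9.68) and SST (4.14 and 6.68) lie above the dotted line of equal values, and lower genes such as HTR2A (−3.29 and −3.71) lie below it. The other 8 called genes were above background in 1 of the groups only and are not drawn.

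Enzymes that make or remove steroids and prostaglandins gave no call with all arrays. Of 26 listed steroid genes 18 were measured, with a median of 0.39. HSD11B1, which regenerates active glucocorticoid, stood at 4.46, 2.0 and 2.67 at the inter-sites, against 4.09, 3.95 and 5.43 in non-pregnant sows. It differed by −1.45 (limma, adjusted p = 0.201) and was called at −2.16 without inter-site replicate 1 (limma, adjusted p = 0.0401). Without the 3 libraries of low ACP5 it was not called, at −1.69 (limma, adjusted p = 0.0577). HSD11B2, which inactivates glucocorticoid, gave 1.23 (limma, adjusted p = 0.256). AKR1C1, a ketosteroid reductase, stood at −4.11, −1.36 and −1.77 at the inter-sites, against −6.19, −6.76 and −5.26 in non-pregnant sows. Its groups did not overlap, and its difference of 3.66, which rests in part on dim signals, was not called (limma, adjusted p = 0.217). Of 26 listed prostaglandin genes 12 were measured, with a median of −0.12. PTGS2, the inducible cyclooxygenase, stood at −1.92, 1.73 and 1.55 at the inter-sites, against −0.92, −0.07 and −0.77 in non-pregnant sows, so that its groups overlapped through replicate 1 (limma, adjusted p = 0.609).

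Immune genes as lists showed no call with all arrays. Of 42 listed interferon response genes 30 were measured, and their median was 0.05 and turned negative or positive with the scaling (−0.11 to 0.19). ISG12(A), an interferon-induced gene, stood at 8.32, 9.84 and 9.91 at the inter-sites, against 8.84, 8.94 and 9.05 in non-pregnant sows. Replicate 1 was below the non-pregnant range and the other inter-site arrays above it, and the gene was called without replicate 1 at 0.93 (limma, adjusted p = 0.0227). Of 29 listed antigen presentation genes 22 were measured, with a median of −0.24 and 20 negative differences, beside 1206 negative ones among all 2018 genes. The median was 0.11 within the slide of inter-site replicate 1 and −1.13 within the slide of inter-site replicate 2, and it ran from −0.46 to 0.24 over all alternatives, so its direction was not settled. IL6, the inflammatory cytokine, stood at −2.38, −2.90 and −3.99 at the inter-sites, against −4.91, −4.74 and −2.72 in non-pregnant sows, and non-pregnant replicate 3 lay among the inter-site arrays (limma, adjusted p = 0.395). LPAR3, a lysophosphatidic acid receptor of uterine epithelium, stood at −4.85, −3.35 and −5.07 at the inter-sites, against −5.25, −4.54 and −3.19 in non-pregnant sows, also with overlap.

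Growth and stress genes had negative medians without a call. The cell cycle list, with 17 of 50 measured, had a median of −0.81 (−0.97 to −0.43 under the other scalings), and 4 lower and 1 higher member at an unadjusted p under 0.05, beside 16.4% lower and 4.11% higher over all genes with a symbol. Its median was 0.16 within the slide of inter-site replicate 1 and −1.31 within the slide of inter-site replicate 2, so its direction differed between slides. CCND2, cyclin D2, had the lowest p of it and stood at 3.57, 2.42 and 2.05 at the inter-sites, against 5.02, 4.53 and 3.67 in non-pregnant sows (limma, adjusted p = 0.123). The list of chaperones and immediate early genes, with 18 of 48 measured, had a median of −0.46 (−0.62 to −0.24 under the other scalings). MYC, a growth-promoting transcription factor of that list, stood at 2.25, 0.06 and −0.12 at the inter-sites, against 2.20, 2.0 and 2.64 in non-pregnant sows. Replicate 1 was inside the non-pregnant range, and MYC was called without it at −2.31 (limma, adjusted p = 0.0192; 0.16 with all arrays).

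Markers of the cell types that whole endometrium can hold gave no call in any list. The summed level of 7 of 15 epithelial markers ranged from 104 to 190 at the inter-sites and from 100 to 205 in non-pregnant sows, with a median difference of 0.20. For 4 of 12 endothelial markers the range was 16.6 to 26.3 at the inter-sites and 18.4 to 22.8 in non-pregnant sows. The 8 of 15 measured macrophage markers ranged from 15 to 42.3 at the inter-sites and from 13.1 to 56.6 in non-pregnant sows. The 12 of 24 measured lymphocyte markers ranged from 6.26 to 6.62 at the inter-sites and from 6.35 to 8.52 in non-pregnant sows. Of the 8 macrophage markers 6 had a negative and 2 a positive log2 difference, with a median of −0.18, and −0.40 without inter-site replicate 1. CD14, a monocyte and macrophage receptor and 1 of the 2 positive ones, was called without replicate 1 at 1.92 (limma, adjusted p = 0.0389; 0.126 with all arrays). Of 27 listed conceptus and trophoblast markers 10 were measured, with a median of 0.55 and a summed level of 3.90 to 5.80 at the inter-sites and 2.77 to 5.71 in non-pregnant sows.

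Inter-sites and attachment sites of day 13 were set against each other to ask whether pregnancy acted differently at the place of attachment. By the labels both kinds of site come from the same pregnant sows, but no label ties an array to a sow. Of 30091 probes 0 were called (0.0%), with 2446 at an unadjusted p under 0.05 and a lowest adjusted p of 0.0897 in limma, and no alternative setting of limma gave a call. PGR, HTR2A and ANPEP, called against non-pregnant sows, had overlapping levels at both sites, though a missed threshold does not show that the sites were alike. PSME3 and PSMA5, called too, did not overlap between the sites. PSME3 stood at −0.57, −0.52 and −0.33 at the inter-sites, against 0.03, −0.19 and −0.12 at the attachment sites. PSMA5 stood at 2.69, 2.51 and 2.63 at the inter-sites, against 3.16, 2.76 and 2.80 at the attachment sites. PGR stood at 2.15, 1.16 and 1.2 at the inter-sites, against 1.14, 1.15 and 1.24 at the attachment sites. HTR2A averaged −4.19 ± 0.73 at the inter-sites and −4.77 ± 0.63 at the attachment sites (SD, n = 3 each), and ANPEP averaged 1.62 ± 0.25 at the inter-sites and 1.65 ± 0.45 at the attachment sites. DKK1 stood at −3.24, 5.08 and 4.52 at the inter-sites, against 5.67, 4.32 and 4.83 at the attachment sites. The low array is again inter-site replicate 1, and no attachment-site array of day 13 was low in DKK1.

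The later inter-sites are given for the called genes as means only, without a test. In order of non-pregnant sows, day 13, day 18 and day 24, PGR averaged 3.27, 1.5, 1.34 and 1.89. On day 24 the arrays of PGR ranged from 1.25 to 3.03, the highest being the library of low ACP5. ANPEP averaged −0.51, 1.62, 1.86 and 1.48 in that order, and NR0B1 averaged −6.12, −2.65, −2.39 and −4.55. For the genes of protein synthesis, RNA handling and protein breakdown given here, the day 24 means lay nearer to the non-pregnant ones than the day 13 means did. HNRNPAB averaged 4.06, 2.80, 3.04 and 3.77 in that order, VARS averaged 3.92, 2.63, 2.78 and 3.76, and PSMA5 averaged 3.57, 2.61, 2.87 and 3.53. PPP1R14B averaged 3.73, 2.18, 2.46 and 3.41, and TPM4 averaged 4.72, 3.33, 3.84 and 4.40. Day 24 replicate 3, the library of low ACP5, was the highest day 24 array for HNRNPAB, VARS and PSMA5, but not for PPP1R14B or TPM4. The day 24 arrays stood at 3.50, 3.79 and 4.03 for HNRNPAB, 3.77, 3.43 and 4.08 for VARS, and 3.42, 3.48 and 3.68 for PSMA5. All groups share the 3 non-pregnant arrays as their baseline.

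**Figure D5:**
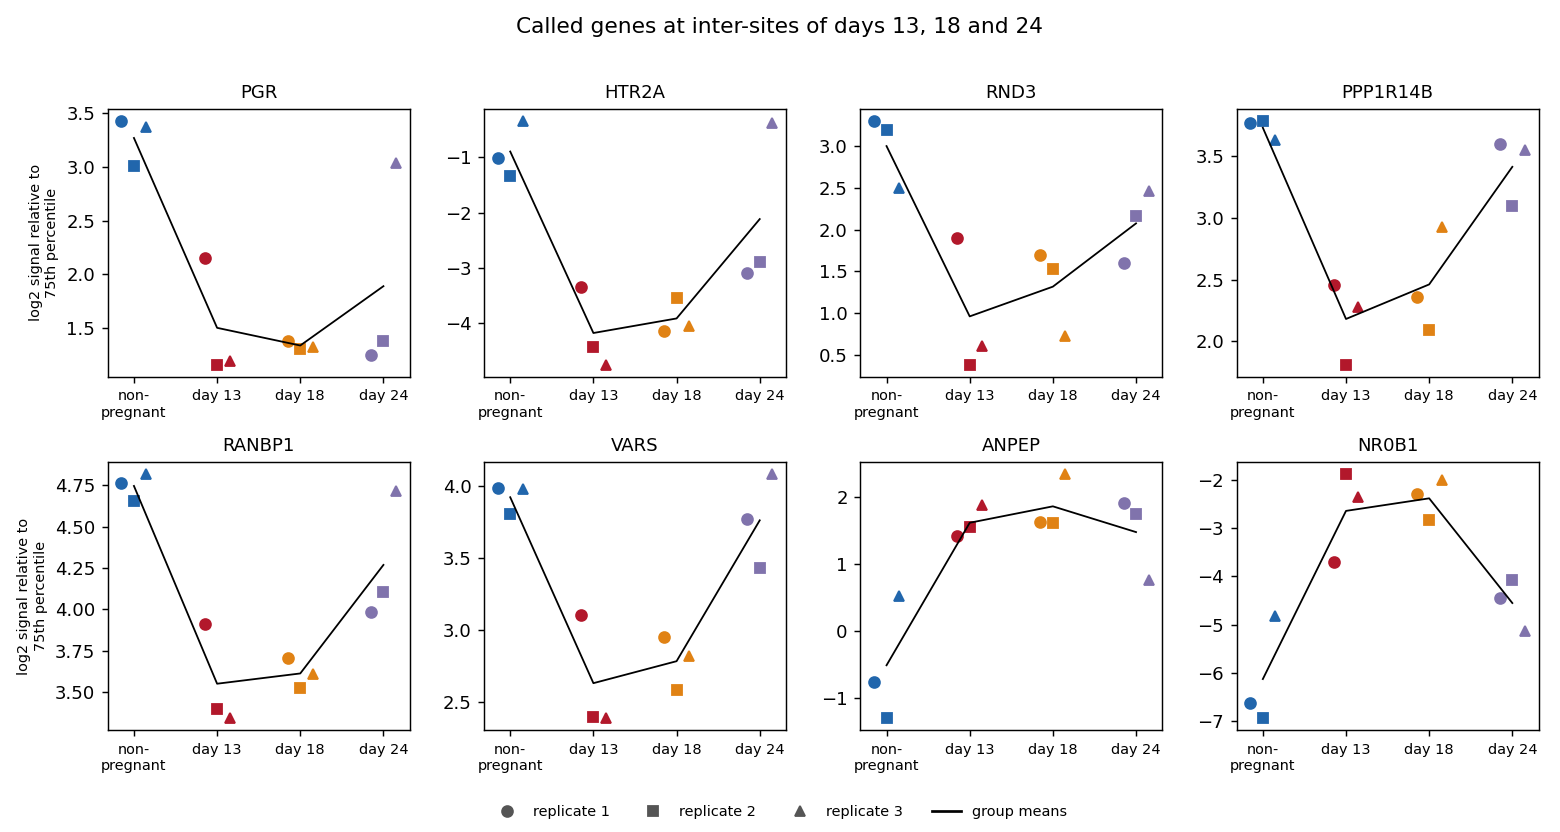
Levels (log2 signal relative to the 75th percentile of the array) of 8 called genes in non-pregnant sows and at inter-sites of days 13, 18 and 24, with replicates as symbols and group means joined by a black line. PGR stays between 1.25 and 1.38 on 2 of the 3 arrays of day 24, while RANBP1, VARS and PPP1R14B have day 24 means nearer to the non-pregnant means than those of day 13. For RANBP1 and VARS the highest day 24 array, at 4.72 and 4.08, is replicate 3, the library of low ACP5.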

How the data were processed

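Whole endometrium was measured on 21 arrays of 1 colour, 1 array per sample and 3 per group. Per the file headers, the intensity of each spot was read with Agilent Feature Extraction 10.7.3.1 (protocol GE1_107_Sep09), whose processed signal is background-subtracted within the array; the submitters' processing notes name version 10.7. The flags used to drop control and outlier spots and to tell probes well above background, given as other values, are per the file headers too. The authors' deposited series table holds log2 values, and no source used here gives the scaling between arrays behind it; it served as an alternative.

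The processed signal was divided by the array's 75th percentile and log2 was taken, spots of a probe were averaged, and the probes tested had to exceed background clearly in all 3 samples of 1 group or more (30091 of 43603). limma 3.58.1 in R 4.3.3 fitted the 7 group means over the 21 arrays, after a test on simulated data. Probes were named through RefSeq accessions: 5461 had 1 symbol, giving 2389 genes, and 38142 probes, 101 of the 135 called ones among them, stayed unnamed. Alternatives changed the background correction, scaling, dim-probe filter, arrays fitted, slide or replicate as a block, and variance options, and left out each array in turn. The background alternative used the median spot and background signals (normexp, offset 50), since the files hold no mean signal.

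The genes named are those called by their representative probe, the 12 highest and 12 lowest differences with unadjusted p under 0.05 and groups that do not overlap, up to 4 members of lowest p in each of 30 lists, the 8 highest and 8 lowest called without inter-site replicate 1, and DKK1, FST, KLF5, PGR, ESR1, LPAR3, PTGS2, SPP1 and IL6, apart from genes not reported here. Members and lists were chosen with earlier results of these data known. Replicate numbers were checked for pairing: the deviations of inter-site and non-pregnant arrays with the same number correlated at −0.12, 0.12 and −0.18. Those of inter-site and attachment-site arrays with the same number correlated at −0.11, −0.01 and 0.23. With so few arrays in a group the deviations depend on each other, so low correlations cannot exclude pairing. Whether the numbers pair the samples was left undecided. No sequence is printed.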

Additional observations from a re-analysis of the deposited data

How the results depend on the processing

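The 135 probes called at the inter-sites of day 13 became 0 with normexp on the median signals (2569 at an unadjusted p under 0.05), 628 (74 higher and 554 lower) when arrays were scaled to their median, 7 with no filter on dim probes, 1 with only the 6 arrays compared, 0 with the slide blocked (3364 with unadjusted p below 0.05) and 366 with trend and robust options in eBayes. Scaling to the median moved the median difference of all probes by −0.16. Quantile normalization and the authors' deposited table gave 90 each, the filter in both groups 202, slide as a random block 99, and the replicate block 154, which left 13 of the 15 genes called. Quantile normalization and the authors' table each left 6 of the 15 called, no filter on dim probes 1, and normexp 0. Slide as a random block left 14, and median scaling and the trend and robust options left all 15. Leaving out 1 array gave 0 to 610 probes for pregnancy and 0 to 0 for inter-site against attachment site, where the replicate block gave 0 as well. Chosen after seeing the data, leaving out day 13 inter-site replicate 1 with day 24 inter-site replicate 3 gave 1158, leaving out the 3 libraries of low ACP5 gave 1004, and libraries matching at on-off probes as a random block gave 0. Signs of the log2 differences printed for single genes held in all of these fits except for RBP4, which was 3.04 without inter-site replicate 1, −0.30 without inter-site replicate 2 and −0.09 without inter-site replicate 3. The causes of these moves were not tested. Signal over background, 2.35 to 2.9 on the 6 arrays, limits what can be said of dim probes.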

Other observations

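Further gene lists gave no call with all arrays, and their members are given as values. Of the solute carrier and aquaporin genes 68 were measured, with a median of −0.06, 5 higher and 11 lower at an unadjusted p under 0.05, beside 4.11% higher and 16.4% lower over all genes with a symbol. SLC4A4, a sodium bicarbonate cotransporter, stood at −2.51, −3.45 and −4.18 at the inter-sites, against −1.75, −1.57 and −2.22 in non-pregnant sows. Its groups did not overlap, and it was called without inter-site replicate 1 at −1.96 (limma, adjusted p = 0.0124; 0.0571 with all arrays). The cationic amino acid transporters SLC7A1 and SLC7A2 pointed in opposite directions, at −0.91 and 1.61, and neither was called (limma, adjusted p = 0.0869 and 0.158).

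Of 52 listed extracellular matrix genes 21 were measured, with a median of −0.20, and 1 higher and 4 lower members at an unadjusted p under 0.05, against those same shares over all genes. CTGF, a matrix-associated growth regulator, stood at 1.71, 4.81 and 5.42 at the inter-sites, against 1.72, 1.90 and 2.33 in non-pregnant sows, and was called without replicate 1 at 3.13 (limma, adjusted p = 0.0195; 0.2 with all arrays). COL5A1, a collagen V chain, differed by −1.50 and SPARC, a collagen-binding matrix protein, by −0.98, and neither was called (limma, adjusted p = 0.157 and 0.247). Adhesion molecules and mucins, with 20 of 40 measured, had a median of 0.11, and MUC20, a membrane mucin, gave −1.67 with overlapping groups (limma, adjusted p = 0.234). Complement and coagulation genes, with 24 of 43 measured, had a median of −0.02. Of the smaller marker lists, 2 stromal, 2 erythroid and 1 ciliated marker were measured, with medians of −0.05, 0.19 and 0.87, and of 13 B cell markers 0 were measured.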
